A study of Mus musculus with 2 samples.

Results

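The loops described here are the very long ones, pairs of 10 kb anchors on 1 chromosome whose starts lie over 2 Mb apart, in loop lists from the mouse uterus. They were taken by their length alone from both lists: 530 of 24131 loops in estrus and 532 of 26240 loops in diestrus. Of these, 456 in estrus and 456 in diestrus spanned over 2 to 10 Mb, while 74 in estrus and 76 in diestrus spanned over 10 Mb. The series followed the estrous cycle with Hi-C, which counts ligation products between any 2 stretches of DNA that lay close together in the nucleus. The estrus group was uterus from unexposed CD-1 females, an outbred stock, aged 2 months and in estrus, and the diestrus group was the same tissue from unexposed CD-1 females aged 2 months in diestrus. Each stage had 1 library made with the Arima kit from whole uterus, so its loops came from a mixture of epithelium, stroma, muscle and other cells. The labels and files do not state whether tissue of several animals was pooled. With 1 library per stage, the stage, the animals and the library cannot be told apart, no test between stages was possible, and every interval below covers counting error only.

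Most chromatin loops form when the ring-shaped cohesin complex extrudes DNA until it meets the factor CTCF at both ends, and such loops rarely reach far. Contacts over greater distances are known to arise in other ways, among them the clustering of developmental genes held silent by Polycomb proteins. On the inactive X chromosome, the macrosatellite loci Dxz4 and Firre are known to meet over very long distances in females. In a Hi-C map aligned to a reference assembly, a sequence that sits elsewhere in the animals studied, or that occurs in several copies, also appears as a distant contact.

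The promoters shown here, from RefSeq on GRCm38.p6, belong to genes at the ends of the long developmental contacts described below, with Cwc22 as the gene at a group of loops that were nearly all in estrus. Each runs from 250 bases before to 50 bases after the annotated start, 5′ to 3′ on the strand of the gene, with every CG dinucleotide in capitals. They are Pou4f1 (chr14:104467950-104468249, minus strand), Nkx6-1 (chr5:101664662-101664961, minus strand), Barhl2 (chr5:106458117-106458416, minus strand), Evx2 (chr2:74659508-74659807, minus strand), Tbx18 (chr9:87731211-87731510, minus strand) and Cwc22 (chr2:77946307-77946606, minus strand).
Pou4f1: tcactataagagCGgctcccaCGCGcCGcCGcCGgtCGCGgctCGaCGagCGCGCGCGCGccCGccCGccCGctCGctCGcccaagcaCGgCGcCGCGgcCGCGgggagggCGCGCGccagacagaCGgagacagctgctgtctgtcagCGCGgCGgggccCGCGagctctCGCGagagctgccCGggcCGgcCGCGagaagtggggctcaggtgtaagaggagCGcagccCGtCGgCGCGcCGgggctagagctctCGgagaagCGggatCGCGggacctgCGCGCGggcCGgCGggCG
Nkx6-1: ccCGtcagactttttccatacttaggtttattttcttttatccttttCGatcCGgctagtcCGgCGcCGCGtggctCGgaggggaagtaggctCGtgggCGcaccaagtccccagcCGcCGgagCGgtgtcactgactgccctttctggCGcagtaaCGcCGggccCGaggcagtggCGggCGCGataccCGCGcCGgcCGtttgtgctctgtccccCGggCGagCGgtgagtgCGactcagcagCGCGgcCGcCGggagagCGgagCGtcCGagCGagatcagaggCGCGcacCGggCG
Barhl2: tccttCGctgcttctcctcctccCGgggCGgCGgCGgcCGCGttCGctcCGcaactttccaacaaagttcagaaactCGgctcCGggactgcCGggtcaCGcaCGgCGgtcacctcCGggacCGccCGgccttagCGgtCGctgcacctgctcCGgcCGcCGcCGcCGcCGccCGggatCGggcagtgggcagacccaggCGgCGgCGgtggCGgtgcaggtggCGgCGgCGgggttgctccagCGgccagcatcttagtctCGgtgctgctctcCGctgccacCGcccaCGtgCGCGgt
Evx2: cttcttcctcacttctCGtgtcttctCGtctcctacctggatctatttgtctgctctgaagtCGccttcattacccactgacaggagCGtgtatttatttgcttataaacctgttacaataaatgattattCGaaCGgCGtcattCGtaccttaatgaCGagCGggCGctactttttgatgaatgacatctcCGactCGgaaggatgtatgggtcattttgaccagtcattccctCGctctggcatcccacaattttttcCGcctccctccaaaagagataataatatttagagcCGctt
Tbx18: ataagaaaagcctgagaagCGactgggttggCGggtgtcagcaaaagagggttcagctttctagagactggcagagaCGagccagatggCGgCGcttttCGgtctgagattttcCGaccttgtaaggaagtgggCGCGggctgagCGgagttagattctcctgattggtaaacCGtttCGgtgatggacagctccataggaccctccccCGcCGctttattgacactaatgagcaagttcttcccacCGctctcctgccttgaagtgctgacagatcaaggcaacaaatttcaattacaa
Cwc22: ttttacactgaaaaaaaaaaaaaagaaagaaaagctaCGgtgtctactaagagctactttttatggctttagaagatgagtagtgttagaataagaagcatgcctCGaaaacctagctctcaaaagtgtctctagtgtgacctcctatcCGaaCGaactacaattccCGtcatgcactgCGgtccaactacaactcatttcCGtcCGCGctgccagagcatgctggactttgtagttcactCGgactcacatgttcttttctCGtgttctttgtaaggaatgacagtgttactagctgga

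The Pou4f1 promoter held 57 CG dinucleotides, Barhl2 42, Nkx6-1 40, Evx2 16, Tbx18 15 and Cwc22 11, against a median of 7 over all 32619 promoters of the table. Of the 17 developmental genes with a start inside an anchor of a loop over 2 Mb, 7 had at least 20 CG, with a range of 7 to 57. Over all genes at such anchors, 33.1% of 169 promoters in estrus and 35.8% of 176 in diestrus had at least 20 CG. The share at anchors of loops up to 2 Mb was 39.9% in estrus and 40.8% in diestrus, and the share over all promoters was 26.7%. CG-dense promoters were thus not more common at long loops than at shorter ones.

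Loops over 2 Mb were a small part of each map. They held 23270 contacts in estrus, 0.560% of the contacts at all listed loops, and 23867 in diestrus, 0.526%. Chromosome 3 had most of them, 54 in estrus (3.66% of its loops) and 49 in diestrus (3.14%). Chromosome 19 had fewest, 5 in estrus (0.716%) and 6 in diestrus (0.849%). The median long loop had 35 contacts in estrus and 33 in diestrus, whereas loops up to 2 Mb had a median of 128 in each stage. The whole lists summed to 4153485 contacts in estrus and 4533525 in diestrus. Near the limit of 2 Mb median contacts did not change abruptly: loops just inside it, over 2 to 2.1 Mb, had a median of 38.5 contacts in estrus and 41 in diestrus. Those just outside it, over 1.9 to 2 Mb, had 36 in estrus and 38 in diestrus. The share found in the other library, as defined below, differed more. It was 78.3% of 46 loops in estrus and 78.7% of 47 in diestrus just inside the limit. Just outside, it was 65.5% of 55 in estrus and 69.2% of 52 in diestrus.

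The 2 length classes behaved differently in strength, the ratio of contacts observed at the loop to those expected from the surrounding ring of bins (the donut). Median strength was 5.69 in estrus and 5.62 in diestrus over 2 to 10 Mb. Over 10 Mb it was 174 in estrus (95% interval 137 to 258) and 132 in diestrus (95.8 to 235). For loops up to 2 Mb it was 3.39 in estrus and 3.25 in diestrus. The median loop over 10 Mb had fewer contacts, 20 in estrus and 20 in diestrus, against 36 in estrus and 35 in diestrus over 2 to 10 Mb. The expectation was lower by far more: its median was 0.151 contacts over 10 Mb in estrus and 0.187 in diestrus, against 6.49 in estrus and 6.82 in diestrus over 2 to 10 Mb. A loop over 10 Mb was therefore usually a small spot of contacts in an almost empty part of the map. The longest joined 5.37 and 181.91 Mb of chromosome 2, a distance of 176.54 Mb, in both libraries.

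**Figure D1:**
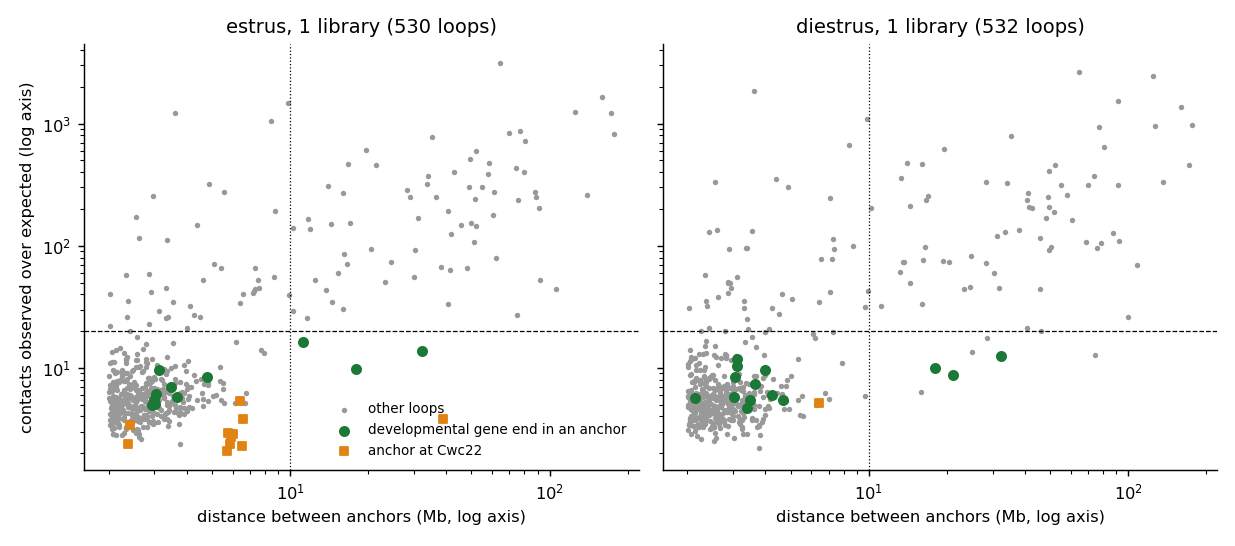
Distance between anchors (x axis, Mb) against strength, the observed over expected contacts (y axis), both on log axes, for each loop over 2 Mb in estrus (left) and diestrus (right). Points above the dashed line at 20 are called isolated contacts in the text, and the dotted line marks 10 Mb. Loops with a developmental gene end in an anchor all lie below the dashed line in both libraries.

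Both classes recurred between the libraries. A loop counted as found where the other library held one with each anchor no more than 10 kb away. This held for 73.7% of loops over 2 to 10 Mb in estrus and 74.1% in diestrus, and for 70.3% over 10 Mb in estrus and 68.4% in diestrus. For loops up to 2 Mb the share was 81.0% in estrus and 74.4% in diestrus. Long loops of 1 library alone had fewer contacts, with a median of 25 in estrus and 24 in diestrus, against 39 in estrus and 38 in diestrus for those in both. Of the 388 mutual pairs over 2 Mb, 332 lay in exactly the same bins.

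The classes differed most in how they sat among other loops. Over 2 to 10 Mb, both anchors lay within 1 bin of an anchor of a loop up to 2 Mb in 54.6% of loops in estrus and 55.5% in diestrus. Over 10 Mb this held for 6.76% in estrus and 7.89% in diestrus, and for loops up to 2 Mb, counting other loops only, for 67.6% in estrus and 69.2% in diestrus. Loops over 2 to 10 Mb also shared anchors with each other. Only 28.1% of them in estrus and 29.6% in diestrus stood alone in a network of their own class, against 91.9% in estrus and 88.2% in diestrus over 10 Mb. Protein-coding gene ends were scarcer over 2 to 10 Mb, in an anchor of 22.4% of loops in estrus and 23.9% in diestrus. Up to 2 Mb the share was 45.2% in estrus and 44.2% in diestrus. Over 10 Mb it was 32.4% in estrus (interval 22.0 to 44.3%) and 34.2% in diestrus (23.7 to 46.0%), and the diestrus interval includes the share up to 2 Mb. Pseudogene ends were in an anchor of 16.2% of loops over 10 Mb in estrus and 17.1% in diestrus. The share was 8.77% in estrus and 8.77% in diestrus over 2 to 10 Mb, and 6.96% in estrus and 6.76% in diestrus up to 2 Mb.

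**Figure D2:**
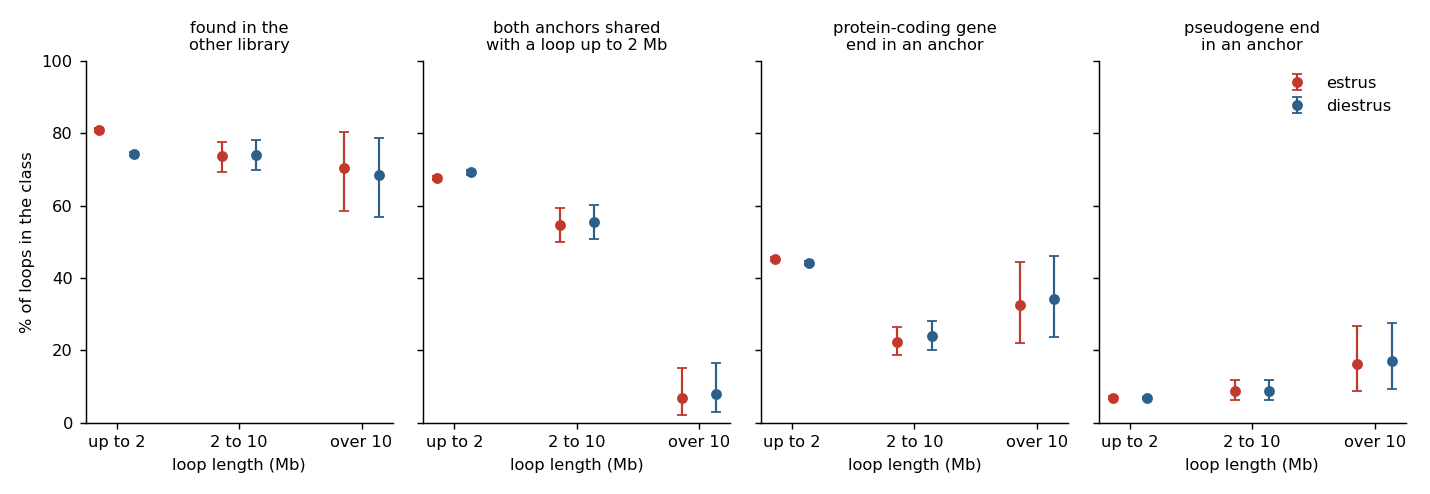
Share of loops (y axis, %) by length class (x axis, Mb) in estrus (left point of each pair) and diestrus (right point), with 95% Clopper-Pearson intervals as bars. The share of loops with both anchors at shorter loops drops to 6.76% in estrus and 7.89% in diestrus over 10 Mb, while the share found in the other library there is 70.3% in estrus and 68.4% in diestrus.

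Contacts between developmental loci were few, and some recurred in both libraries. A developmental gene here is 1 of 373 homeobox and other developmental transcription factor genes or 105 developmental signalling genes, matched by symbol. An end of such a gene lay in an anchor of 11 loops over 2 Mb in estrus (2.08%) and 14 in diestrus (2.63%), beside 2.92% of loops up to 2 Mb in estrus and 2.89% in diestrus. Counting ends up to 10 kb outside the bin as well, the share over 2 Mb was 2.26% in estrus and 2.82% in diestrus, while that up to 2 Mb was 4.80% in estrus and 4.70% in diestrus. All genes inside an anchor were transcription factor genes, and the signalling list had 0 such loops in either stage. Ends in both anchors were found in 6 of 530 long loops in estrus (1.13%, interval 0.417 to 2.45%) and 4 of 532 in diestrus (0.752%, 0.205 to 1.91%). For loops up to 2 Mb the share was 14 of 23601 in estrus (0.0593%) and 16 of 25708 in diestrus (0.0622%). With any base of a gene counted, the share in both anchors was 1.32% in estrus and 1.32% in diestrus over 2 Mb, against 0.381% in estrus and 0.412% in diestrus up to 2 Mb.

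The longest contact with developmental gene ends in both anchors joined Pou4f1, a POU-domain factor of sensory neurons, with Zic2, a zinc-finger factor of neural development, 18.01 Mb apart on chromosome 14. It had 16 contacts in estrus and 17 in diestrus, at a strength of 9.84 in estrus and 10.0001 in diestrus, in the same bins (chr14:104460001-104470000 and chr14:122470001-122480000). Shox2, a homeobox gene of limb and heart pacemaker development, met the body of the T-box gene Tbx15 over 32.28 Mb of chromosome 3, with 15 contacts in estrus and 13 at a neighbouring bin in diestrus. Both contacts thus came back in the second library at nearly the same count. Otx1 and Tlx3, homeobox genes of the forebrain and of spinal sensory neurons, met over 11.21 Mb with 13 contacts in estrus and were not called in diestrus. Counts of this size carry wide intervals: the 13 contacts of Otx1 and Tlx3 allow 6.92 to 22.2.

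Over 2 to 10 Mb the strongest developmental pair was Dlx1, a homeobox gene of interneurons, with Evx2, the homeobox gene beside the HoxD cluster. It had 30 contacts in estrus and 40 in diestrus over 3.12 Mb, a strength of 9.65 in estrus and 11.9 in diestrus. The T-box gene Tbx18 met the Zic4 and Zic1 locus with 18 contacts in estrus and 23 in diestrus, at anchors 20 kb apart between the libraries. On chromosome 5, Nkx6-1, a homeobox gene of the pancreas and of motor neurons, met Prdm8 over 3.48 Mb and Barhl2 over 4.79 Mb, with 15 contacts each in estrus, and neither was called in diestrus. Sox21 met Zic2 over 4.25 Mb with 26 contacts in diestrus and was not called in estrus. Of the loops with a developmental gene end, 6 of 11 in estrus and 6 of 14 in diestrus had a partner in the other library. For all loops over 2 Mb the share was higher, 73.2% in estrus and 73.3% in diestrus.

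Several loops had a listed gene at 1 end and another gene at the other. The end of Igf2bp3, an RNA-binding protein gene, met the HoxA cluster, whose posterior genes pattern the reproductive tract. In estrus it met Hoxa13 with 46 contacts and the Hoxa3 and Hoxa7 anchor with 39. In diestrus it met Hoxa13 with 41 contacts, and the other was not called. Sox4, a factor of progenitor cells, met an anchor 3.02 Mb away in a gene-poor stretch of chromosome 13 with 46 contacts in estrus and 66 in diestrus. Called in diestrus alone were Otp with Foxd1 (19 contacts), the body of Gata4 with Ebf2 (20), the body of Nr4a2 with Tbr1 (19), and an anchor within 1 kb of Meis1 with Otx1 (22). Otp, Gata4, Nr4a2 and Meis1 are themselves transcription factor genes, but were not counted at those ends by the rule used.

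**Figure D3:**
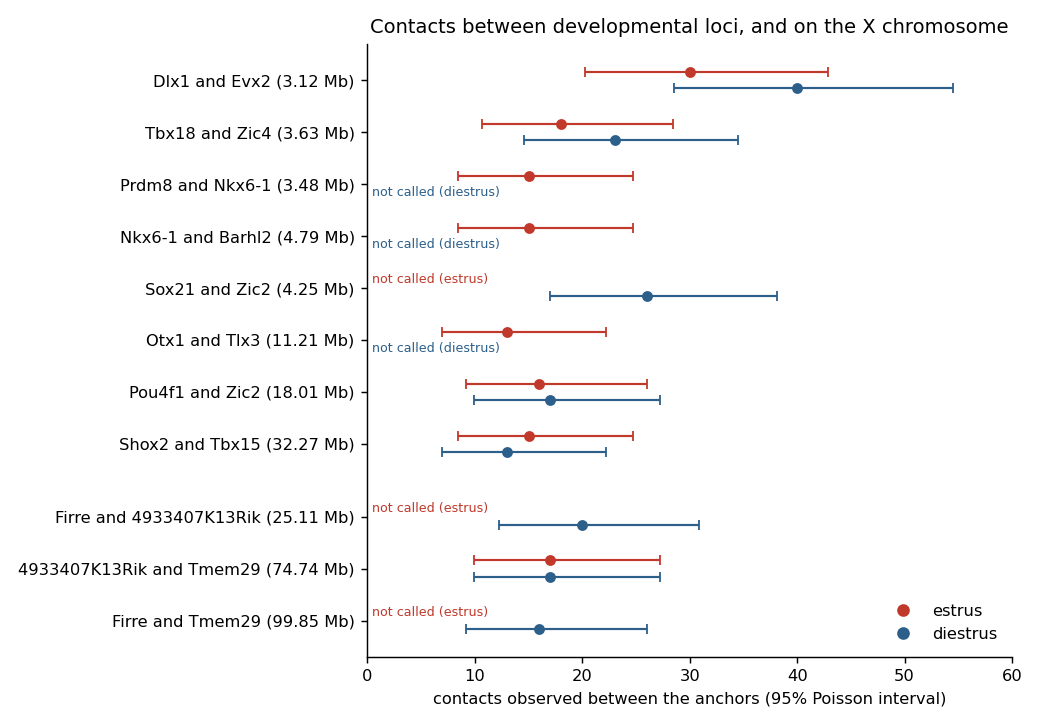
Contacts (x axis) at named pairs of loci over 2 Mb, with exact 95% Poisson intervals, in estrus (upper point of each row) and diestrus (lower point). Distances between the anchors are in Mb, and a pair with no loop in a list is marked as not called. The 4 developmental pairs called in both libraries have intervals that overlap between the stages.

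On the X chromosome, 3 loci were joined to each other over 25.11 to 99.85 Mb in diestrus. A separate X loop, between bins nearest Rp2 and Gabre and 51.98 Mb long, had 28 contacts in estrus and 34 in diestrus. In diestrus, Firre, a long noncoding RNA gene, met 4933407K13Rik, the transcript at Dxz4, over 25.11 Mb with 20 contacts at a strength of 13.5. In the same library 4933407K13Rik met the Apex2 and Tmem29 locus over 74.74 Mb with 17 contacts, and Firre met that locus over 99.85 Mb with 16 contacts, so that all 3 sides of a triangle were called. In estrus the side over 74.74 Mb was called, also with 17 contacts (strength 27.0 in estrus and 12.8 in diestrus), and the other 2 sides were not. A side that is not called has no contact count in the list, so how far it fell short in estrus was not measured. Counts of 16 and 20 lie close to the lowest in either list, 13. Xist, the RNA that silences the X, had no loop over 2 Mb in either library, and neither had the estrogen receptor gene Esr1, the progesterone receptor gene Pgr or the hypoxia factor gene Epas1.

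Developmental contacts were among the few loops over 10 Mb of low strength. A loop was called isolated when its strength was over 20, a limit chosen after the strengths were seen. No listed loop had fewer than 13 contacts, so a low enough expectation by itself put a loop over this limit. The median expectation over 10 Mb was 0.151 in estrus and 0.187 in diestrus. Over 10 Mb the isolated class therefore largely restates a low expectation, and so do comparisons made with it. This held for 70 of 74 loops over 10 Mb in estrus and 69 of 76 in diestrus, and for 42 of 456 in estrus and 43 of 456 in diestrus over 2 to 10 Mb. The 4 loops over 10 Mb below it in estrus were Pou4f1 with Zic2, Shox2 with Tbx15, Otx1 with Tlx3 and Ppp6c with Cwc22. The 7 in diestrus included Pou4f1 with Zic2, Shox2 with Tbx15, 2 sides of the X triangle, Ppp2r1a with Trim26, and Crlf2 with Cnpy4. The side over 74.74 Mb in estrus and the side over 99.85 Mb in diestrus (strength 26.05) were above it. No isolated loop had a developmental gene end in 112 loops in estrus and 112 in diestrus, which allows a share of up to 2.68% in each by 3 counts of the total, or 3.24% by the Clopper-Pearson interval. Loops that were not isolated had one in 11 of 418 in estrus and 14 of 420 in diestrus. With a limit of 10, also chosen after the strengths were seen, 2 of 150 isolated loops in estrus and 4 of 157 in diestrus had one. The expectation around the Pou4f1 and Zic2 bins was 7.19 times that of loops of like length in estrus and 5.32 times in diestrus. Loops of like length are the 30 other listed long loops nearest in rank, not all bin pairs at that distance. Over 10 Mb most of those were isolated, so the ratio does not show that a wider area was raised. Shox2 with Tbx15 had a ratio of 4.77 in estrus and 5.29 in diestrus, and Dlx1 with Evx2 0.42 in estrus and 0.50 in diestrus.

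Isolated contacts were led by ribosomal sequence. The contact between a bin with the predicted gene Gm18604 and a bin with Rn18s-rs5, a sequence related to 18S ribosomal RNA, had 701 contacts in estrus and 1025 in diestrus (chr17:36230001-36240000 and chr17:39840001-39850000). Its strength was 1214 in estrus and 1865 in diestrus, from a single bin pair in each. The same Rn18s-rs5 bin met Gm32892, 16.97 Mb away, with 226 contacts in estrus and 248 in diestrus, the most of any loop over 10 Mb. Neither Rn18s-rs5 pair spread to neighbouring bins. Ribosomal RNA genes are repeated in arrays outside the assembled part of the mouse chromosomes. Whether copies of this sequence gave the contacts was not tested.

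Other isolated contacts over 10 Mb joined bins of genes with different names, and the examples here were in both libraries. The inner part of Cntnap5b met a gene-free bin 49.47 Mb away on chromosome 1 with 116 contacts in estrus and 88 in diestrus. Bst1 met Cdk2ap1 over 80.51 Mb with 51 contacts in estrus and 64 in diestrus. Actr2, an actin-branching subunit, met the importin gene Kpnb1 over 77.05 Mb with 66 contacts in estrus and 53 in diestrus. A bin of chromosome 2 near Apbb1ip met one 159.18 Mb away at Gm40034, close to the end of the chromosome, with 81 contacts in estrus and 70 in diestrus. An anchor lay within 1 Mb of the first or last annotated gene of its chromosome in 5 of 74 loops over 10 Mb in estrus and 3 of 76 in diestrus. These shares were 6.76% in estrus (interval 2.23 to 15.1%) and 3.95% in diestrus (0.822 to 11.1%). Up to 2 Mb the share was 1.02% in estrus and 1.07% in diestrus, which lies inside the diestrus interval and below the estrus one. Of the loops over 10 Mb, 67.6% in estrus and 71.1% in diestrus were a single bin pair, against 28.4% in estrus and 30.2% in diestrus up to 2 Mb. Over 2 to 10 Mb the share was 46.3% in estrus and 49.1% in diestrus. In that class it was 47.6% of isolated loops in estrus and 51.2% in diestrus. The loops there that were not isolated were near this, at 46.1% in estrus and 48.9% in diestrus. Pseudogene ends lay in an anchor of 23 of 112 isolated loops over 2 Mb in estrus and 22 of 112 in diestrus, against 29 of 418 loops that were not isolated in estrus and 31 of 420 in diestrus.

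Genes of large duplicated families were not more frequent at long loops. An end of a gene from 8 family lists (receptors of smell and pheromones, immune, detoxification, histone, keratin, germline and zinc-finger families among them) lay in an anchor of 12 loops over 2 Mb in estrus (2.26%) and 11 in diestrus (2.07%). Up to 2 Mb the share was 2.93% in estrus and 2.75% in diestrus. Both anchors held such genes in 2 long loops in estrus (0.377%) and 1 in diestrus (0.188%). Up to 2 Mb the share was 0.453% in estrus and 0.440% in diestrus. The long pair found in both libraries was the histone cluster of chromosome 13, where the H2ac13, H2bc13 and H3c10 anchor met H2bc3 and H3c3 over 2.03 Mb with 71 contacts in estrus and 75 in diestrus. The other in estrus lay inside the immunoglobulin kappa locus, Igkv2-95-1 with Igkv3-1, with 17 contacts, and diestrus had a loop of 17 contacts at the neighbouring bin. Isolated loops with a family gene in estrus were those of the olfactory receptor gene Olfr1211 over 69.99 Mb, with 60 contacts in estrus and 19 in diestrus, and Olfr1141 over 9.91 Mb, with 37 in estrus and 24 at a neighbouring bin in diestrus. The kappa gene Igkv2-137 was joined to a bin 24.48 Mb away with 47 contacts in estrus and 30 in diestrus. The vomeronasal receptor gene Vmn2r121 was joined over 16.67 Mb with 29 contacts in estrus and 18 in diestrus. All 4 were in both libraries, with more contacts in estrus. In diestrus alone, the zinc-finger gene Zfp996 was joined over 2.43 Mb with 25 contacts. Clec16a, counted in this list through its symbol, is a single-copy gene.

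Beside the histone genes, transfer RNA clusters of chromosome 13 met each other over 2.27 Mb with 130 contacts in estrus and 193 in diestrus (chr13:21160001-21170000 and chr13:23430001-23440000). Loops with transfer RNA genes in both anchors numbered 2 over 2 Mb in estrus (0.377%, interval 0.0457 to 1.36%) and 2 in diestrus (0.376%, 0.0456 to 1.35%). Up to 2 Mb the share was 0.0890% in estrus and 0.0817% in diestrus, inside these intervals. The second of the long loops, over 2.35 Mb, had 98 contacts in estrus and 142 in diestrus. Both were chosen for mention after their values were seen.

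A group of loops around Cwc22, a splicing factor gene, differed in number between the lists. In estrus 11 loops over 2 Mb had an anchor between 77.87 and 78.02 Mb of chromosome 2 or joined it from afar, against 1 in diestrus. In estrus 8 of them ended 5.7 to 6.56 Mb away, with 42 to 106 contacts each, at bins of Itgav, Zc3h15, Calcrl and Tfpi, apart from 1 with 44 contacts whose far bin held no gene. Itgav encodes an integrin subunit, Calcrl a peptide hormone receptor and Tfpi an inhibitor of clotting. In diestrus the 1 loop of this kind had 32 contacts, with an anchor 1 bin away from the loop that had 106 in estrus, with a strength of 5.20 in diestrus and 5.36 in estrus. What differed was the whole neighbourhood. The expectation around the 8 loops in estrus was 13.7 to 36.7 contacts, whereas the median of the other 31 estrus loops over 5 to 10 Mb was 0.955. Around the 1 loop in diestrus it was 6.15, against a median of 0.626 for the other 26 loops.

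The Cwc22 promoter bin also met Ppp6c, a phosphatase gene, 38.72 Mb away in estrus with 23 contacts, and the expectation there was 30.9 times that of loops of like length. Chromosome 2 had 49 loops over 2 Mb in estrus (2.59% of its loops) and 34 in diestrus (1.69%). Expectations at least 5 times those of loops of like length occurred at 11 long loops in each library, 7 of them on chromosome 2 in estrus and 0 in diestrus. Cwc22 lies in a segment of chromosome 2 known to vary in copy number between mouse strains. Copy number in these animals was not measured in the loop lists, its part in the loops was not tested, and animal and stage cannot be told apart. Without the Cwc22 loops, 519 loops over 2 Mb remained in estrus and 531 in diestrus, and 19 of 31 over 5 to 10 Mb in estrus were found in diestrus, against 19 of 26 in diestrus found in estrus.

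**Figure D4:**
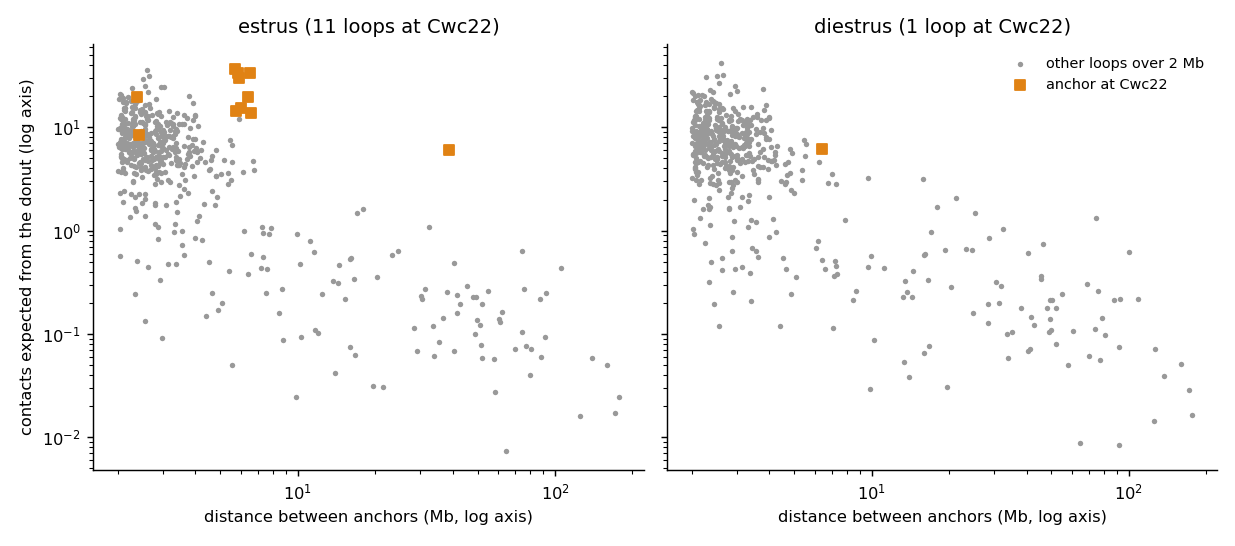
Distance between anchors (x axis, Mb) against contacts expected from the donut (y axis), both on log axes, for loops over 2 Mb in estrus (left) and diestrus (right). Loops with an anchor at Cwc22, 11 in estrus and 1 in diestrus, are orange squares. The 8 estrus squares near 6 Mb lie at 13.7 to 36.7 expected contacts, above the grey points of like length.

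Over 2 to 10 Mb, 3 loops with many contacts at named genes are given as examples, chosen after their values were seen. The anchor of Slitrk3, a synaptic adhesion gene, met a bin 2.94 Mb away with 290 contacts in estrus and 288 in diestrus. The Efnb2 and Arglu1 anchor, Efnb2 encoding the ligand ephrin-B2, met a gene desert 2.09 Mb away with 212 contacts in estrus and 210 in diestrus. Cited2, a transcriptional coregulator gene, was joined over 2.42 Mb with 158 contacts in estrus and 150 in diestrus. Strengths lay between 8.55 and 11.7 in estrus and between 6.86 and 11.8 in diestrus for these 3. Other loops of like counts differed more, among them one over 2.24 Mb of chromosome 5 with 163 contacts in estrus and 196 in diestrus, and one over 8.43 Mb of chromosome 3 with 167 in estrus and 141 in diestrus.

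Anchors with many long loops recurred as well. A bin at 68.97 Mb of chromosome 7, with no gene, had 6 loops over 2 Mb in each library, with 324 contacts in estrus and 396 in diestrus, all reaching 2.25 to 3.39 Mb across Nr2f2. Nr2f2, which encodes a nuclear receptor of the uterine stroma, itself had no loop over 2 Mb. The bin at 25.93 Mb of chromosome 13 had 6 loops in estrus and 5 in diestrus, to Sox4 and to bins nearest the prolactin family genes Prl4a1 and Prl5a1 among others. The end of Hapln1, a matrix link protein gene, had 4 loops in estrus and 5 in diestrus, with 283 contacts in estrus and 319 in diestrus. The bin at 6.57 Mb of chromosome 8 that met Efnb2 had 4 loops in each, with 519 contacts in estrus and 482 in diestrus. The body of Cntn4, a neural adhesion gene, had 4 loops in each, with 302 in estrus and 312 in diestrus. The Tafa2 anchor had 4 loops in estrus, with 264 contacts, and 3 in diestrus. The Flrt2 anchor had 3 loops in estrus and 5 in diestrus, with 262 contacts in diestrus. Of all anchor bins of long loops, 171 of 825 in estrus and 169 of 822 in diestrus took part in 2 or more.

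The strength of shared loops was compared as a log2 ratio, estrus over diestrus, centred on the median of all 19399 shared loops. Among the 388 over 2 Mb, 30 were past 1.5-fold towards estrus and 35 towards diestrus, 16.8% of them, against 3.2% of all shared loops. The share was 12.8% over 2 to 10 Mb and 42.3% over 10 Mb. Few contacts go with part of this: among loops with 20 to 50 contacts it was 14.9% over 2 to 10 Mb and 42.9% over 10 Mb, against 6.998% up to 2 Mb. The SD of the log2 ratio was 0.49 over 2 Mb and 0.25 up to 2 Mb, while the median was 0.03 over 2 Mb, so the spread was wider with no shift to either stage. The 1.64% of all shared loops past the limit towards estrus and 1.56% towards diestrus were near each other too. Without the expectation, raw contacts gave 28 loops over 2 Mb past 1.5-fold towards estrus and 20 towards diestrus, where 4.37% of all shared loops were past it, 1.7% towards estrus and 2.67% towards diestrus. With the bottom-left expectation, from the bins between the anchors, it was 49 towards estrus and 47 towards diestrus, where 3.86% of all shared loops were past it, 2.01% towards estrus and 1.85% towards diestrus.

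Among shared loops with at least 20 contacts in both libraries, the largest ratio towards diestrus was at a contact between the bodies of Rfx3, a factor of ciliogenesis, and Prkg1, a cyclic GMP kinase gene, 3.54 Mb apart on chromosome 19. It had 25 contacts in estrus (interval 16.2 to 36.9) and 83 in diestrus (66.1 to 103), a log2 ratio of -1.93. The intervals do not overlap, and the expectations were close, at 0.718 in estrus and 0.631 in diestrus. Next came a contact on chromosome 4 near Zfp990 and Zfp982 at -1.65, with 42 contacts in estrus and 49 in diestrus, where the expectation differed more, at 10.6 in estrus and 3.99 in diestrus. With the same minimum, the largest towards estrus was near Pcdh17 and Diaph3 on chromosome 14 at 1.44, with 42 contacts in estrus and 34 in diestrus. Its expectation was 4.13 in estrus and 9.15 in diestrus, so this ratio too came mainly from the expectation. At both of these contacts the called bins differed between the libraries, so the expectations are not for the same position. Over 10 Mb, a bin of the lysyl-tRNA synthetase gene Kars met a bin near Lonrf1 75.68 Mb away with 64 contacts in estrus. In diestrus a neighbouring bin met it with 25 contacts (1.28).

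**Figure D5:**
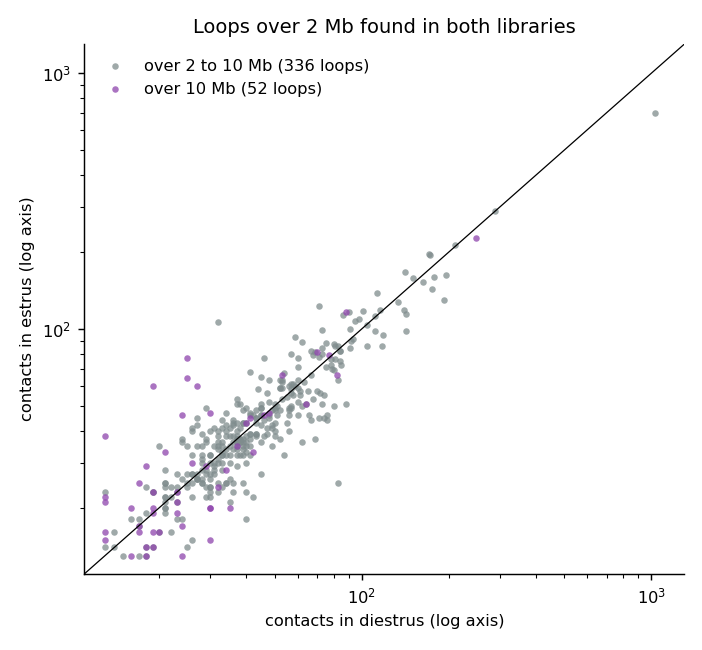
Contacts in estrus (y axis) against contacts in diestrus (x axis), both on log axes, at the 388 loops over 2 Mb found in both libraries, 336 over 2 to 10 Mb in grey and 52 over 10 Mb in purple. The black line marks equal counts, and the point at the upper right is the Rn18s-rs5 contact with 701 in estrus and 1025 in diestrus.

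The 5 long loops of a single library with most contacts lay mostly at Cwc22 in estrus and at separate places in diestrus. In estrus the 4 with most contacts were at Cwc22, with 77 to 81 contacts, followed by a loop to Gsdmc on chromosome 15 with 59. In diestrus the first was between 38.19 and 41.06 Mb of chromosome 7, at 1600014C10Rik and 1700110I07Rik, with 107 contacts at a strength of 41.4. It was followed by one over 3.68 Mb of the same chromosome with 86 contacts and by one over 126.58 Mb of chromosome 3 with 69 contacts at a strength of 965. A loop near Eogt on chromosome 6 had 68 contacts and one to Cited2 had 62. Chromosome 7 had 20 long loops among its 1177 in estrus (1.70%) and 29 among its 1448 in diestrus (2.00%). The absence of these from the other list does not give their contacts there.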

How the data were processed

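Hi-C was done on 1 uterus library per stage, and each library's deposited loop list was read as it stood. Per the submitters' processing notes the authors used Juicer with the mm10 build; their versions, settings and the read depth were not stated there. Per the file headers each loop has an observed contact count, 4 expected signal values (bottom-left, donut, horizontal, vertical), a q-value for each, and other fields such as the number of merged pixels. Observed values are whole-number counts and were not normalized here. A strength of observed over donut expectation, a matching tolerance of 10 kb between nearest anchor edges, and log2 strength ratios of mutual nearest loops were computed from them with Python 3 scripts (pandas, scipy), and matching was tested on simulated data. Shares have 95% Clopper-Pearson intervals, contacts exact Poisson intervals, medians order-statistic intervals. Genes and promoters came from RefSeq on GRCm38.p6, which shares its chromosome coordinates with mm10, and a gene counted at an anchor when an end lay in it. No genome sequence was used, so gaps and segmental duplications at anchors were not examined here.

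Named loops followed a rule: the 15 over 10 Mb with most contacts per library, of which examples are given, the developmental pairs (up to 20), 15 with a duplicated-family gene, the 8 busiest anchors, the 5 largest ratios each way with at least 20 contacts in both, the 5 with most contacts in a single library, and 6 fixed genes. Any other loop was named after its values were seen. The members and gene lists were chosen with earlier results of these data known. Alternatives covered q-values, contacts, chromosomes, merging, matching, gene assignment, expectation and centring. Some loops that meet the rule are not reported here.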

Additional observations from a re-analysis of the deposited data

How the results depend on the processing

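Of 106 recomputed main values, 93 stayed within their interval or within 1.5 times the count, and 13 moved. Requiring at least 20 contacts left 40 loops over 10 Mb in estrus and 40 in diestrus, raised the estrus share found in diestrus to 77.8%, and gave a median strength of 5.71 in estrus and 5.71 in diestrus. Matching in the same bins only gave 62.6% in estrus and 62.4% in diestrus. Gene ends within 10 kb gave a duplicated-family gene at 3.96% in estrus and 4.51% in diestrus, while the share up to 2 Mb was then 4.96% in estrus and 4.86% in diestrus. The largest of the 4 expectations gave a median strength of 4.77 in estrus and 4.48 in diestrus. With the bottom-left expectation 49 shared loops were past 1.5-fold towards estrus and 47 towards diestrus, and with raw contacts 28 towards estrus and 20 towards diestrus, so the larger number, towards diestrus at 30 in estrus and 35 in diestrus, turned towards estrus under both. Leaving out the Cwc22 loops, and the limits of 10 and 50 for isolated contacts, were chosen after seeing the data. At a limit of 10, 150 loops in estrus and 157 in diestrus were isolated, with a developmental gene end in 2 in estrus and 4 in diestrus; at 50 none had one in 81 in estrus and 80 in diestrus. No paired analysis was possible because each stage had 1 library. Loops with few contacts limit what the lists can show: a contact not called has no count, and the fewest contacts of any listed loop were 13.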

Other observations

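Some isolated contacts, those with a strength over 20, joined stretches that hold members of 1 gene family outside the family lists. On chromosome 1, a bin between Dnah7b and Dnah7c, within 50 kb of both, met a bin within 50 kb of Dnah7a over 7.3 Mb, with 63 contacts in estrus and 52 in diestrus. These genes belong to the axonemal dynein heavy chain family. A further pair near the same 3 genes, over 7.33 Mb, had 25 contacts in estrus and 36 in diestrus. Bins near the far ends of Dnah7c and Dnah7a met over 6.57 Mb with 24 contacts in estrus and 33 in diestrus. Dnah7b and Dnah7a bodies met over 7.61 Mb with 19 contacts in estrus and were not called in diestrus. On chromosome 17, a bin within 50 kb of the pseudogene Mettl4-ps1 met one within 50 kb of Mettl4, a methyltransferase gene, over 23.21 Mb with 29 contacts in estrus and 29 in diestrus. On chromosome 14, a bin within 50 kb of Ang5 and Ang6 met a bin within 50 kb of Ang2, all of the angiogenin family, over 7.19 Mb with 18 contacts in estrus and 40 in diestrus.

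A symbol stem shared by genes within 50 kb of both anchors, a rule made after these loops were seen, was found at 7 of 112 isolated loops in estrus (6.25%, interval 2.55 to 12.5%) and 6 of 112 in diestrus (5.36%, 1.99 to 11.3%). For loops over 2 Mb that were not isolated it was 9 of 418 in estrus (2.15%, 0.989 to 4.05%) and 7 of 420 in diestrus (1.67%, 0.673 to 3.40%). For loops over 1 to 2 Mb it was 2.75% in estrus and 2.96% in diestrus. The intervals of isolated and other long loops overlap in both libraries. Several of these isolated loops in each library lay at the Dnah7 genes described above, and some of the others lay together at Gpc5 and Gpc6. The intervals treat such neighbouring loops as independent, which they may not be. Common stems chosen by hand, among them Slc, Tmem and Trim, were left out of the rule.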
